A study of Mus musculus with 6 samples.

Results

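The pseudogenes described here are the genes of the islet count table whose GENCODE gene type contains the word pseudogene. They were chosen by a mean raw count of at least 15 over the 6 libraries, and symbols starting with mt- or ending in os were left out. The rule was met by 215 of the 1113 such pseudogenes in the table, which holds 15286 genes in all. Their counts are therefore given as a description, while position, sequence, genotype and litter were not used by the rule.

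The study asked whether loss of the long non-coding RNA A830019P07Rik (P07Rik) alters gene expression in mouse pancreatic islets. Islets came from male C57BL/6N mice of 12 weeks and were kept for 2 h at 3 mM glucose before RNA was extracted. The paper gives overnight fasting for the mice of its islet insulin secretion assay and does not state it for the RNA sequencing. WT mice (P07Rik+/+) were compared with littermates homozygous for a mutant allele (P07Rik flox/flox), which carries a floxed, promoter-driven neomycin cassette in an intron of P07Rik that traps the transcript. The 3 WT and 3 flox/flox libraries are from 1 mouse each, and the mice come from 2 litters, with replicates 1 and 2 of both genotypes, numbered as in the labels, in litter 1. The libraries of litter 2 are called replicate 3 here only as a name, since the labels number them WT 1 and flox/flox 2. The allele is constitutive, so it is not limited to islet cells, and islets hold several endocrine cell types beside vessels and remaining exocrine cells. Counts of P07Rik itself were not analysed here, and the genotypes were taken from the labels.

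Pseudogenes are copies of genes that no longer encode the protein of the gene they came from. Processed pseudogenes are copies of a spliced mRNA that was reverse transcribed and inserted elsewhere in the genome, often within another gene, whereas unprocessed ones arose by duplication and keep introns, and a unitary pseudogene is the inactivated gene itself with no intact copy left. Abundant housekeeping mRNAs, those of ribosomal proteins above all, gave rise to many processed copies, and a pseudogene can be read from its own promoter, from that of a neighbouring gene or not at all.

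The total count was 698588, 793596 and 690726 in WT replicates 1, 2 and 3 and 646141, 611181 and 800255 in flox/flox replicates 1, 2 and 3. Of these counts, the 215 pseudogenes held 2.80% (exact 95% binomial confidence interval 2.76 to 2.84), 2.52% (2.49 to 2.56) and 2.50% (2.46 to 2.54) in WT replicates 1, 2 and 3. In flox/flox replicates 1, 2 and 3 they held 2.94% (2.90 to 2.98), 2.57% (2.53 to 2.61) and 1.81% (1.79 to 1.84). These intervals cover counting error only. Flox/flox replicate 3 was the lowest library, and the other 5 libraries of both genotypes overlapped. A single gene, AY036118, had its highest share in flox/flox replicate 3. It held 14.5, 20.0 and 13.6% of all counts in WT and 14.5, 22.1 and 41.0% in flox/flox libraries. Without the counts of AY036118 the pseudogenes held 3.27, 3.15 and 2.89% in WT and 3.44, 3.31 and 3.08% in flox/flox libraries, and the lowest library was then WT replicate 3. Leaving out 1810014B01Rik as well, the shares were 1.73, 1.72 and 1.85% in WT and 1.76, 1.76 and 1.90% in flox/flox libraries, and both libraries of litter 2 were the highest, so the order of the libraries rests on this pseudogene.

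These counts depend on the strand that a read was taken to come from. The libraries were made with a strand-specific kit, and the counting program in its default setting assigns a read to a gene on the strand to which the read maps. The orientation of the reads against that setting was not tested here. If it is the reverse, a count on a pseudogene would be a count of reads from the RNA of the other strand at the same place, in most cases that of the gene it lies in. The counts are given as the table assigns them, and RNA of the pseudogene and RNA of the opposite strand cannot be told apart from them. The same limit holds for the counts of all other genes given here. As measured values, Ins2, an insulin gene of beta cells, had 157, 205 and 158 counts in WT and 165, 128 and 96 in flox/flox libraries.

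A single pseudogene, 1810014B01Rik, held 36.1 to 48.9% of the counts on the 215 in each library. The median of the mean counts was 27.3, with 14 pseudogenes at a mean of at least 100 and 95 at a mean of at least 30. No pseudogene was at 0 in any library, and 198 had at least 10 counts in all 6. Just inside the threshold, Gm12036 had 16, 21 and 9 counts in WT and 24, 13 and 7 in flox/flox libraries, and Gm16184 had 15, 22 and 19 against 13, 5 and 16. Just outside, at a mean of 14.8, Gm17828 had 15, 11 and 15 counts against 12, 18 and 18, and Gm13673 had 24, 13 and 13 against 15, 9 and 15. The genes on either side of the threshold therefore had overlapping counts.

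Processed pseudogenes made up 174 of the 215, with means from 15 to 670.7. Of the others, 12 were annotated as transcribed processed, 12 only as pseudogene, 9 as unprocessed, 7 as transcribed unprocessed and 1 as transcribed unitary. The table holds 925, 48, 24, 69, 27 and 7 genes of these types at any level, so 12 of the 24 genes of the bare pseudogene type met the rule against 174 of the 925 processed ones.

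The pseudogene with the most counts was 1810014B01Rik (ENSMUSG00000097412, transcribed unprocessed) on the plus strand of chr10:86685525-86694806 (GRCm38, as all positions here). It had 9217, 9110 and 6225 counts in WT replicates 1, 2 and 3 and 9309, 7356 and 5560 in flox/flox replicates 1, 2 and 3. Both libraries of litter 2 were the lowest of their genotype, and the genotypes overlapped. Per kb of exons its mean was 2940 counts. Over 415 bp its exons lie opposite exons of Hsp90b1, which encodes an endoplasmic reticulum chaperone, and Hsp90b1 had 94, 128 and 41 counts in WT and 86, 80 and 54 in flox/flox libraries, or 20.0 per kb.

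Gpr137b-ps (transcribed unprocessed) is a copy of Gpr137b, a gene for a lysosomal membrane protein. It had 935, 861 and 787 counts in WT and 804, 688 and 605 in flox/flox libraries. Gm5831, a processed pseudogene whose closest match is the nuclear body gene Sp140, had 716, 695 and 801 counts in WT and 719, 558 and 535 in flox/flox libraries. It lies entirely opposite an exon of Arhgef12, which had 17, 12 and 12 counts in WT and 16, 6 and 8 in flox/flox libraries. The raw counts were lowest in flox/flox replicate 3 in both. As CPM (counts scaled to library size with TMM factors), the lowest value of Gm5831 was that of WT replicate 2, and the genotypes overlapped in both pseudogenes on either scale.

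Gm10653 (transcribed processed) matches Rps2, a protein of the small ribosomal subunit, and had 391, 319 and 382 counts in WT and 384, 315 and 286 in flox/flox libraries. Gm16042, which matches the cell cycle regulator Fbxo5 and lies opposite an exon of Glcci1, had 191, 243 and 228 against 192, 189 and 193. Gm6649, which matches the ETS transcription factor Elf1, had 215, 226 and 206 against 220, 177 and 160. In all 3 the genotypes overlapped.

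1700018M17Rik, of the bare pseudogene type, lies opposite exons of the splicing regulator Ptbp3 and had 203, 157 and 141 counts in WT and 175, 103 and 142 in flox/flox libraries. Thap6, the unitary pseudogene, overlaps exons of the ubiquitin ligase gene Rchy1 on the other strand and had 103, 90 and 68 counts against 80, 66 and 58. The genotypes overlapped in both.

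The spread over the 6 libraries was summarised for each pseudogene. The highest library, as CPM, was at the median 1.87 times the lowest, and the median coefficient of variation was 0.242. The widest ratio, 56.6, was that of Gm18194.

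Where the pseudogenes lie was read from the annotation. Of the 215, 195 (90.7%, exact 95% interval 86.0 to 94.2) overlapped a gene on the opposite strand. In 51 of them (23.7%, 18.2 to 30.0) an exon of that gene was met, and 144 (67.0%, 60.3 to 73.2) lay in its introns alone. A gene on the same strand overlapped 9 (4.19%, 1.93 to 7.80), of which only Gm15681 within Cdh8 had none on the opposite strand, and 19 (8.84%, 5.40 to 13.5) lay in no other gene.

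An opposite-strand gene was less frequent, and no gene or a same-strand gene alone more frequent, among the pseudogenes below the threshold. The same held for annotated pseudogenes that are not among the genes analysed here, whose counts are not known. These differences were not tested. An opposite-strand gene was present for 66.3% of the 898 pseudogenes of the table below the threshold and for 11.6% of the 12411 annotated pseudogenes that are not among the genes analysed here. Of the latter, 9.94% lay in a same-strand gene alone and 78.4% in no gene. Over all 15258 genes of the table with an annotation the share was 55.5%, and over the 10361 protein-coding ones 43.7%, of which 6.04% lay in introns alone.

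**Figure D1:**
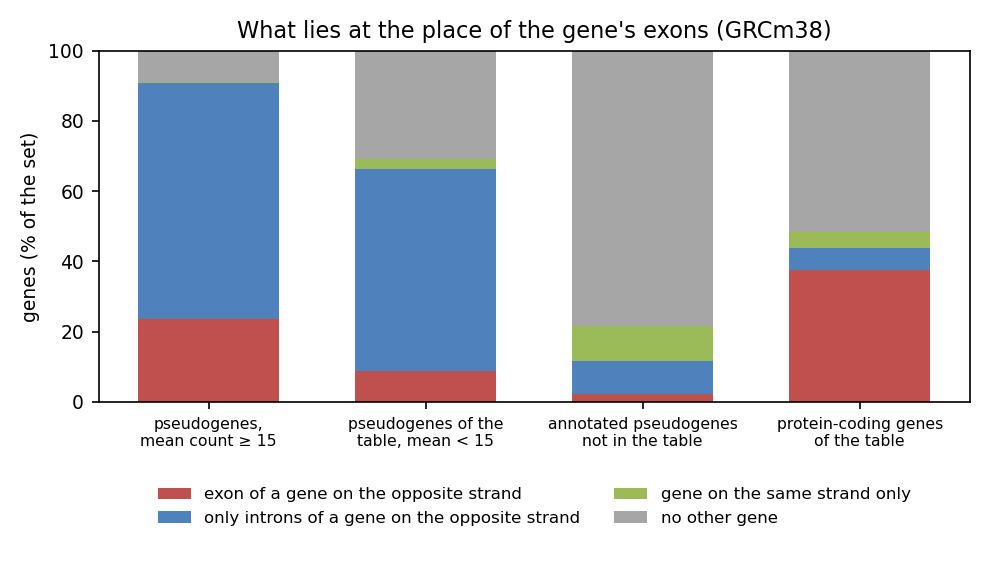
Percent of genes (vertical axis, bars from 0) that lie opposite an exon, in opposite-strand introns alone, in a same-strand gene alone or in no other gene, for the 215 pseudogenes, those below the threshold, annotated pseudogenes not among the genes analysed, and protein-coding genes. Opposite-strand introns alone held 67.0% of the 215 pseudogenes against 57.6, 9.43 and 6.04% in the other sets.

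Over the pseudogenes of the table, the share with an opposite-strand gene was higher in bands of higher mean count, with 1 exception from 30 to 60. It was 45.7% at means under 2, 69.8% from 2 to 5, 82.0% from 5 to 15, 90.8% from 15 to 30, 87.9% from 30 to 60 and 96.6% from 60 on. Opposite-strand exons were met by 6.87, 9.62, 9.49, 11.7, 31.8 and 55.2% of the genes in these bands. The share with an opposite-strand exon was 38.9% at a mean of at least 30 and 15.3% at a mean of at least 5, and 14.0% of the 215 met such exons over at least 50% of their exonic bases. A longer pseudogene can collect more counts, and across the 215 the rank correlation of mean count with exonic length was 0.275, over genes that are not independent replicates.

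The 195 pseudogenes lay opposite 180 genes, of which 169 were protein-coding. For 171 of them the opposite gene was among the genes analysed. The pseudogenes had 17041, 17521 and 14898 summed counts in WT and 16754, 13830 and 12682 in flox/flox libraries, and their opposite genes 4297, 4541 and 3819 against 3993, 3384 and 2942. In each library the sum over the pseudogenes was the higher one, with 5560 to 9309 of its counts from 1810014B01Rik alone. The pseudogenes were chosen for their counts and the opposite genes were not, so an excess of the pseudogenes is in part set by that choice, and the pairs are a description. By mean count, without scaling to length, the pseudogene was above the gene it lies in for 149 of 171 pairs (87.1%). Per kb of exons, it was above for 166 of 171 pairs (97.1%), with medians of 41.3 and 0.639 counts per kb. The opposite genes had a median of 7637 exonic bases, the pseudogenes of 730. Pairs with an opposite exon (39 of 41 with the pseudogene above) and pairs in introns alone (127 of 130) were alike in this, and the rank correlation of the mean counts of both genes of a pair was 0.0553 across the 171 pairs, which are not independent replicates.

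**Figure D2:**
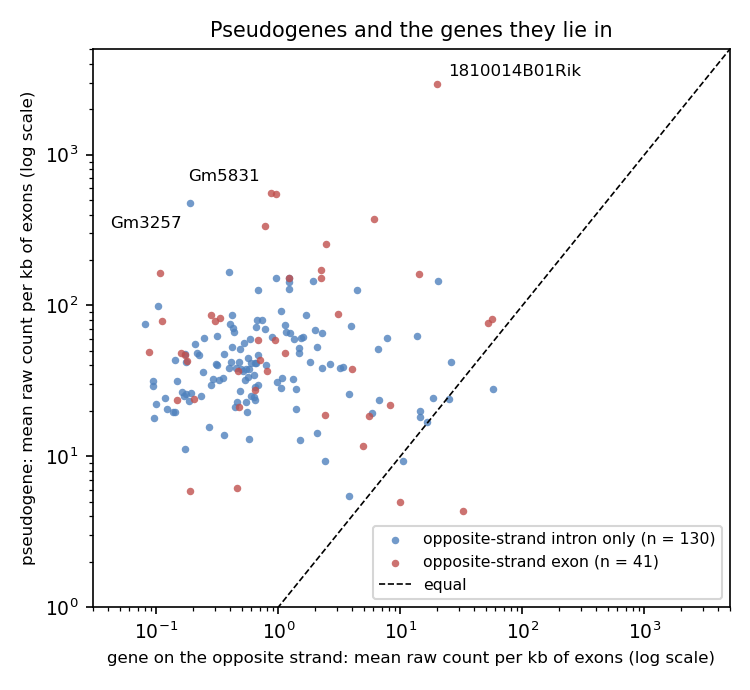
Mean raw count per kb of exons of each pseudogene (vertical axis, log scale) against that of the gene it lies in on the opposite strand (horizontal axis, log scale), with 1 point per pair, red where exons meet (n = 41) and blue in introns alone (n = 130). Of the 171 points, 166 lie above the line of equal values.

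The 5 pairs in which the opposite gene was higher per kb were 5830417I10Rik and 1500004A13Rik, Gm17816 and Cenpo, Gm17907 and Cyfip1, Gm18194 and Gm45315, and Gm16209 and Vps4a. Cyfip1, a regulator of actin and translation, had 801, 864 and 592 counts in WT and 767, 651 and 437 in flox/flox libraries, against 27, 26 and 16 and 17, 17 and 15 for Gm17907 in its introns. At the other end, Gm3257 had 315, 327 and 263 counts in WT and 328, 308 and 401 in flox/flox libraries, while A330076H08Rik, in whose intron it lies, had 1, 2 and 0 against 0, 1 and 1.

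Cacnb2 (chr2:14603088-14987908, plus strand), the gene of a beta subunit of voltage-gated calcium channels, held 4 of the pseudogenes, the most of any gene, all on the minus strand. Cacnb2 had 20, 19 and 21 counts in WT and 14, 10 and 12 in flox/flox libraries, or 1.21 per kb. Gm10849, which meets a Cacnb2 exon, had 114, 104 and 97 counts against 97, 73 and 79. The genotypes met at 97 counts in Gm10849. Gm13268, a copy of the ribosomal protein gene Rpl26 with 96.8% identity, had 63, 62 and 90 counts against 51, 41 and 65. Gm13314, a copy of Rps6, had 34, 39 and 65 against 28, 39 and 53, and Gm13311, a copy of the spliceosomal gene Snu13, had 45, 68 and 61 against 45, 40 and 84. In these 3 copies replicate 3 was the highest library of its genotype except for WT in Gm13311. Per kb of exons the 4 pseudogenes had 152, 143, 128 and 151 counts.

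**Figure D3:**
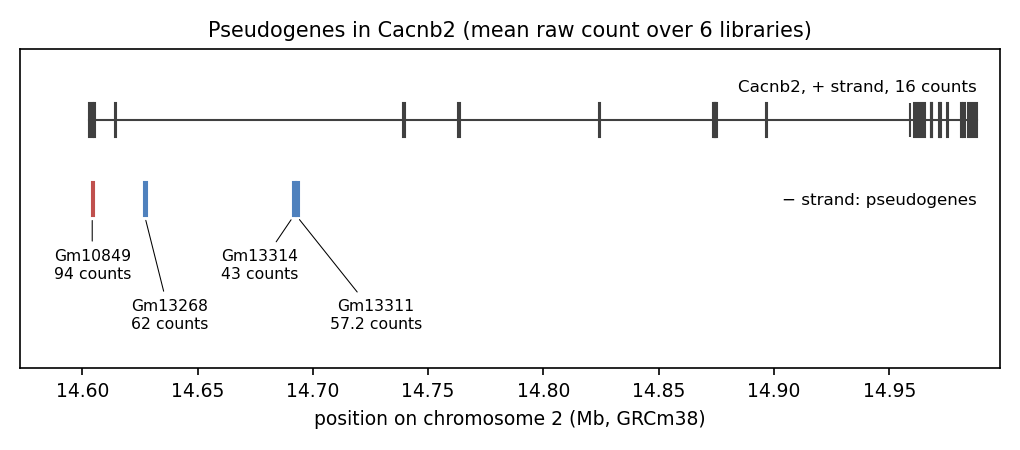
Map of Cacnb2 on chromosome 2 in GRCm38, with positions to scale and short features widened so that they can be seen, with its exons on the plus strand and the 4 pseudogenes on the minus strand, each with its mean raw count over the 6 libraries. The mean was 94 for Gm10849, 62 for Gm13268, 43 for Gm13314 and 57.2 for Gm13311, against 16 for Cacnb2.

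Rsf1, the gene of a chromatin remodelling subunit, held 3 of the pseudogenes, and 10 further genes held a pair each. One such pair lies in the zinc transporter gene Slc30a7, where Gm6649 and Gm43106 adjoin and overlap at their ends on the same strand. Gm43106 had 110, 128 and 78 counts in WT and 113, 79 and 78 in flox/flox libraries. Per kb Gm6649 had 172 counts, Gm43106 had 153 and Slc30a7 had 2.23. Reads on the bases that both share cannot be assigned to one of them.

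The 19 pseudogenes in no other gene had a median of 30.8 counts per kb, against 48.1 for those opposite an exon and 38.3 for those in opposite introns alone. Beside Gpr137b-ps they included Prkcz2, a processed copy of the protein kinase gene Prkcz with 98.5% identity, which had 72, 54 and 45 counts in WT and 55, 47 and 32 in flox/flox libraries. They also included Gm28438, the only 1 of the 215 that matches the mitochondrial genome, which had 28, 44 and 26 counts in WT and 31, 31 and 27 in flox/flox libraries. The genotypes overlapped in both.

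A matching gene was sought by comparing the longest transcript of each pseudogene with those of protein-coding and mitochondrial genes. At 70% identity or more over at least 100 bases, 195 of the 215 (90.7%) matched 149 genes, and 194 of them (90.2%, exact 95% interval 85.5 to 93.9) matched a protein-coding gene. The median identity was 89.6%, with 95 at 90% or more and 49 at 95% or more. With 90% identity over at least 50% of the exonic bases as the requirement, 85 pseudogenes (39.5%) had a match. The longest stretch without a mismatch reached the read length of 125 bases in 32 of the 195 (16.4%), against 163 of 820 (19.9%) of the pseudogenes below the threshold. For these 32 a read can lie in sequence identical to the matching gene, so their counts are uncertain. The longest such stretch, 651 bases, was between Gm5812 and Fbl, the gene of a nucleolar RNA methyltransferase.

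The matching gene was among the genes analysed for 147 pseudogenes, and in 145 of these pairs the pseudogene had the higher mean count per kb. As the matching genes were not chosen for their counts, this too follows in part from the rule. The exceptions were Gm12870 with Rfc5, a subunit of the clamp loader of DNA replication, and 6330549D23Rik with Ints14. Rfc5 had a mean of 739 counts and Gm12870 of 19.83.

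Ribosomal protein genes were the largest group of matches, with 59 of the 215 pseudogenes and 249 of those below the threshold. Among the 59, 58 lay in a gene on the opposite strand, the median identity was 90.2%, and means ran from 15 to 346.2 with a median of 24.8. Rpl7a had 11 copies, Rps2 had 7, Rpl21 had 6 and Rps6 had 5. Glycolysis genes followed with 10 pseudogenes, 9 copies of Gapdh and 1 of Ldha, with means from 17.33 to 122.5. Smaller groups were 4 for nuclear genes of the respiratory chain, 4 for chromatin proteins, 3 each for the cytoskeleton and for chaperones, 2 each for translation factors and RNA-binding proteins, and 0 for the ferritin genes listed, Ftl1 and Fth1, against 23, 29, 10, 14, 14, 10 and 1 below the threshold.

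The sequences show how far a read of 125 bases can tell a pseudogene from its match. For 3 pairs, chosen after their values were seen, the stretch is printed 5′ to 3′ in the sense of each gene, in lower case with the mismatched bases in capitals. Gpr137b-ps (chr13:12650058-12650182, minus strand) and Gpr137b (chr13:13393266-13393390, minus strand) have 0 mismatches in 125 bases, so no read from this stretch can be told apart, and the mean count of Gpr137b was 2.0 against 780 for the copy.
Gpr137b-ps: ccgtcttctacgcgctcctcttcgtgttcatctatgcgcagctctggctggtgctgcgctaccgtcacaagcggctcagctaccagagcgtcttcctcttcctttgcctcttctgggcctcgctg
Gpr137b: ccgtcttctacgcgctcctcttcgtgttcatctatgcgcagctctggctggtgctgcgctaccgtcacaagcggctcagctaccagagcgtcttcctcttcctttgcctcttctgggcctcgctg
Gm3257 (chr7:61938500-61938624, plus strand) and the coding exons of Snrpb, a core protein of the spliceosome (chr2:130173641-130175335, minus strand, across an intron), differ at 21 of 125 bases.
Gm3257: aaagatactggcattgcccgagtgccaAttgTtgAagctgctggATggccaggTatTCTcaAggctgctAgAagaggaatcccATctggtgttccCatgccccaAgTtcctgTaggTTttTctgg
Snrpb: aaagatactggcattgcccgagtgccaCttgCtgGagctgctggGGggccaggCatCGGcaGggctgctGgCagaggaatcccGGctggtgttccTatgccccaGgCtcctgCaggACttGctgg
Gm28438 (chr1:24612995-24613119, minus strand) and mt-Nd3, a subunit gene of respiratory complex I (chrM:9459-9583, plus strand), differ at 1 of 125 bases, and their longest stretch without a mismatch is 342 bases.
Gm28438: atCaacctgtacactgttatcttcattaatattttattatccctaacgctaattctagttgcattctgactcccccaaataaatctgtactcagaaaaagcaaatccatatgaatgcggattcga
mt-Nd3: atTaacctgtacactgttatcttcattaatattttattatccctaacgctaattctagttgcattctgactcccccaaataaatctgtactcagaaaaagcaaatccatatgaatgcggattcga
No gene of the mitochondrial genome was analysed here, so the counts of Gm28438 could not be set beside those of mt-Nd3.

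The genotypes were compared with edgeR's quasi-likelihood test, with p-values adjusted by the Benjamini-Hochberg method over all 5478 genes that passed a filter on low counts, as all 215 pseudogenes did. Of the pseudogenes 0 passed an adjusted p of 0.05, as did 0 of all genes (0%). At an unadjusted p under 0.05 there were 6 pseudogenes and 101 genes (1.84%). These numbers were 11 and 296 with litter as a replicate block, 7 and 192 without flox/flox replicate 3, and 7 and 230 without WT replicate 3. With DESeq2, 0 pseudogenes and 0 genes passed, and 3 and 35 did so unadjusted. Without flox/flox replicate 3, edgeR called 1 gene and 0 pseudogenes. As log2 fold changes of flox/flox against WT, the median of the pseudogenes was 0.05 and that of all genes -0.01. With library size as the only scaling all genes had a median of -0.23, and the pseudogenes were at -0.18. Without flox/flox replicate 3 the pseudogenes were at -0.013 and all genes at -0.007, so the order of these medians turned. The CPM of the genotypes did not overlap for 13 of the 215 (6.05%), against 7.43% of all genes tested, so the share was near the background. In bulk islets, fewer cells of a type and less RNA per cell cannot be told apart.

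Described here are the 3 pseudogenes with the smallest genotype p in each direction. Gm18194, a transcribed processed pseudogene on chr7, had 14, 1 and 2 counts in WT and 13, 31 and 42 in flox/flox libraries. Replicate 1 had like values in both genotypes, and replicates 2 and 3 were higher in flox/flox. As CPM the values were 19.2, 1.30 and 2.70 against 19.2, 54.6 and 73.4, so the genotypes touch in replicate 1. Its log2 fold change was 2.64 (SE 0.659), with an adjusted p of 1.00 by edgeR. With litter as a replicate block the value was 2.60 (SE 0.451, adjusted p = 0.00123), and Gm18194 was then the only 1 of the 215 among 3 genes called (0.0548%). That number of genes was 1 without WT replicate 2 and 8 without flox/flox replicate 1. With the 3 pairs of littermates as the block the log2 fold change of Gm18194 was 2.59 (SE 0.477, adjusted p = 0.00593), again with 3 genes called. In the test with the litter block the call was lost without WT replicate 2 (log2 fold change 2.16, adjusted p = 0.118), WT replicate 3 (1.82, adjusted p = 0.0969) or flox/flox replicate 3 (1.83, adjusted p = 0.0619), and without WT replicate 1 the log2 fold change was 4.65. Over the other alternatives without the block, the adjusted p was 0.00144 with library size only and otherwise from 0.236 to 1.00. With a mean of 17.17 counts per library, Gm18194 rests on few reads.

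Gm3257 had CPM values of 432, 424 and 356 in WT and 486, 542 and 701 in flox/flox libraries, with flox/flox replicate 3 the highest and no overlap. Its log2 fold change was 0.51 (SE 0.167, adjusted p = 1.00 by edgeR). With litter as a replicate block it was 0.50 (adjusted p = 0.205). In that blocked test it was 0.62 (adjusted p = 0.0391) without flox/flox replicate 1, and 0.27 without flox/flox replicate 3 (adjusted p = 0.895) and without WT replicate 3 (adjusted p = 0.909). It was also 0.27 with library size only (adjusted p = 0.933). Gm15470, a copy of the ornithine decarboxylase gene Odc1, had 26, 27 and 26 counts in WT and 42, 31 and 34 in flox/flox libraries, also without overlap, and a log2 fold change of 0.73 (SE 0.242, adjusted p = 1.00).

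On the other side, Gm26925 had 42, 58 and 55 counts in WT and 32, 23 and 27 in flox/flox libraries, which gives -0.61 on the log2 scale (SE 0.237). Gm15425, a copy of the ubiquitin ligase gene Trip12, had 90, 120 and 130 counts against 72, 66 and 62, a log2 fold change of -0.46 (SE 0.182). Gm12870 had 21, 23 and 36 against 18, 8 and 13, a log2 fold change of -0.74 (SE 0.354). In all 3 every flox/flox library was below every WT library, and all 3 had an adjusted p of 1.00 by edgeR. An interaction of genotype with litter was called for 0 of the 215 and for 7 genes (0.128%) by edgeR, with 16 pseudogenes and 394 genes at an unadjusted p under 0.05, and litter 2 has 1 library per genotype.

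The libraries of litter 2, replicate 3 of each genotype, differed from those of litter 1 in more of the pseudogenes. With genotype in the model, 30 of the 215 (14.0%) passed an adjusted p of 0.05 by edgeR, against 620 of all genes (11.3%). This test took the libraries as independent, although the littermate pairs of replicates 1, 2 and 3 correlated at 0.273, 0.178 and 0.458. Litter differs only between pairs, and no litter test that allows for the pairs was run, so its p-values may be too small. Of the 30, 21 were higher in litter 2, against 333 genes (6.08%), and 9 lower, against 287 (5.24%). The CPM of the litters did not overlap for 84 pseudogenes (39.1%), against 32.9% of all genes. At an unadjusted p under 0.05 there were 65 pseudogenes and 1379 genes. The number depended on the libraries used, with 17 pseudogenes (7.91%) called without flox/flox replicate 1, against 8.55% of all genes. Without another library of litter 1 there were 22 to 26 (10.2 to 12.1%), against 8.61 to 9.08% of all genes. Fewer were also called without either replicate 3, but litter 2 is then a group of 1 library. The number can fall through the smaller group alone, so it does not show which library the calls rest on. DESeq2 called 6 pseudogenes (2.79%) and 186 genes (3.4%). With library size only the median of all genes moved to -0.19. Called were then 10 pseudogenes (4.65%, against 4.84% of all genes), 2 higher and 8 lower, beside 46 genes higher and 219 lower. The larger share among the pseudogenes therefore did not hold with DESeq2, with library size only or without flox/flox replicate 1. The litters may also differ in the day of islet isolation or of library preparation, which the labels do not give, and these cannot be told apart from litter.

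The pseudogene with the smallest litter p was Gm18301, an unprocessed pseudogene. It had 182, 169 and 56 counts in WT and 196, 150 and 52 in flox/flox libraries. Both libraries of litter 2 lay far below all 4 of litter 1. Its log2 fold change, litter 2 over litter 1, was -1.62 (SE 0.166, adjusted p = 2.63e-10).

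Gm7115, an unprocessed pseudogene in no other gene, had 30, 36 and 10 counts in WT and 34, 26 and 8 in flox/flox libraries, and fell in litter 2 with a log2 fold change of -1.73 (SE 0.344, adjusted p = 0.000364). Gm17711, opposite an exon of Abracl, had 132, 179 and 97 against 150, 141 and 78, a log2 fold change of -0.72 (SE 0.157, adjusted p = 0.00106). In both, litter 2 was below every library of litter 1. 1810014B01Rik was also lower, with a log2 fold change of -0.50. It was -0.7 with library size only and from -0.45 (without WT replicate 3) to -0.53 (without flox/flox replicate 3) under the other alternatives. In the main test it was called (SE 0.150, adjusted p = 0.0208). That call was lost without flox/flox replicate 1 (adjusted p = 0.0541), flox/flox replicate 2 (0.0651), WT replicate 1 (0.0917) or WT replicate 3 (0.174), and with library size only (0.263) or no filter on low counts (0.0982), and kept with DESeq2 (0.000151). Hsp90b1, opposite to it, was at -0.95 (adjusted p = 0.000579), and its call was lost without WT replicate 3, at -0.50 (0.318).

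Higher in litter 2 was Minpp1-ps, a processed copy of the inositol phosphatase gene Minpp1 in an intron of Mical3, with 24, 23 and 64 counts in WT and 24, 22 and 47 in flox/flox libraries. Both libraries of litter 2 lay above all 4 of litter 1, with a log2 fold change of 1.31 (SE 0.234, adjusted p = 6.79e-05). Gm15033, a copy of Snrpb on the X chromosome, had 26, 28 and 49 counts against 18, 23 and 51, and Gm6855, a copy of Rpl7a, had 26, 28 and 73 against 29, 27 and 38. Gm15580, whose closest match is Ftl1-ps1, had 35, 39 and 93 counts against 33, 41 and 49. In Gm6855 and Gm15580 the WT library of litter 2 was far above its flox/flox littermate. Their log2 fold changes were 1.14 (SE 0.245, adjusted p = 0.000894), 1.05 (SE 0.234, 0.00134) and 0.98 (SE 0.211, 0.000939).

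Gm19178, a copy of Apbb1, had 97, 136 and 46 counts in WT and 91, 87 and 65 in flox/flox libraries, and Gm12896 had 78, 90 and 32 against 54, 58 and 38. The WT library of litter 2 was the lowest in both, and the log2 fold changes were -0.81 (SE 0.192, adjusted p = 0.00267) and -0.92 (SE 0.219, 0.00282). Without WT replicate 3, which leaves 1 library in litter 2, the calls of Gm15580, Gm6855, Gm19178 and Gm12896 were lost. Their log2 fold changes were then 0.52, 0.56, -0.33 and -0.44. Without flox/flox replicate 3 the call of Gm15033 was lost, at 0.88. With library size only, Gm15580 (0.8, adjusted p = 0.0658) and Gm6855 (0.87, 0.0527) were not called. DESeq2 called none of Gm15580 (0.96, adjusted p = 0.0566), Gm6855 (1.04, 0.0631), Gm19178 (-0.8, 0.0699) and Gm12896 (-0.9, 0.0767).

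The direction of the litter difference went with position, a comparison that was added after seeing the data. Of the 144 pseudogenes in opposite-strand introns alone, 113 were higher in litter 2, with a median log2 fold change of 0.28, and 19 were called (13.2%, against 11.3% of all genes), 17 of them higher. With library size only 3 of the 144 were called, Minpp1-ps higher and Gm18301 and Gm19178 lower, so the larger number of higher calls did not hold under that scaling. DESeq2 called Minpp1-ps and Gm18301 alone, and without WT replicate 3 there were 5 calls, 4 of them higher. Of the 51 opposite an exon, 23 were higher, with a median of -0.02, and 6 were called, 2 of them higher. These 6 became 3 with library size only and 2 with DESeq2, with 0 higher in both. With a library of litter 1 left out there were 3 to 6 calls, of which 1 or 2 were higher. The median of these 51 was -0.06 without WT replicate 3 and -0.05 without flox/flox replicate 3. The 19 in no other gene had a median of -0.22, which was 0.01 without WT replicate 3, and 5 were called, 2 of them higher. DESeq2 called 2 of these, 1 higher and 1 lower, and without flox/flox replicate 3 there were 2 calls, both lower. All genes tested had a median of -0.01. With library size only the medians were 0.10 in introns alone, with 89 of 144 higher, -0.22 opposite an exon, with 14 of 51 higher, and -0.41 in no other gene, with 6 of 19 higher, against -0.19 for all genes. The 681 other genes that also lie in opposite-strand introns alone had a median of 0.30, with 488 higher, so the direction in that class is not particular to pseudogenes. The 3348 other genes opposite an exon had a median of -0.06, with 1468 higher. The 1105 others in no other gene had a median of 0, with 555 higher.

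**Figure D4:**
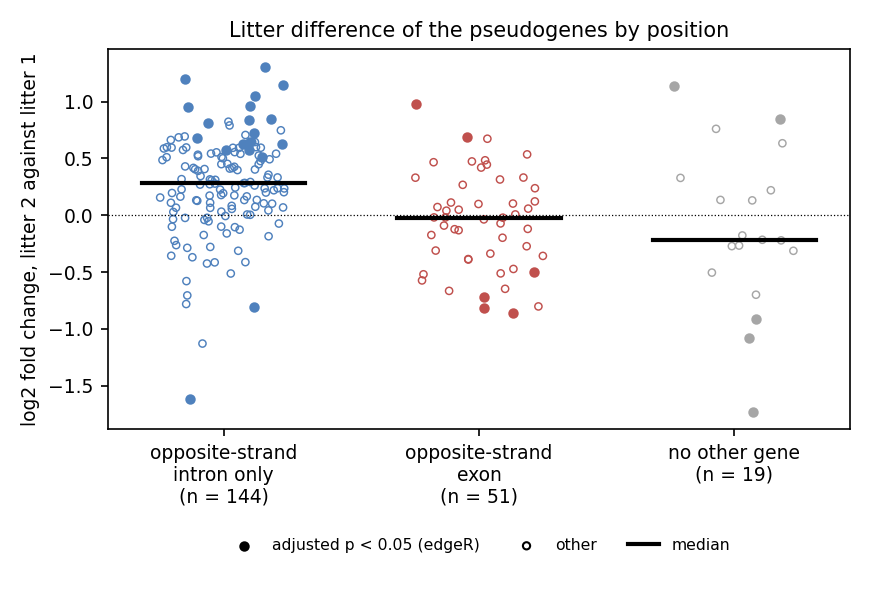
Log2 fold change of litter 2 over litter 1 (vertical axis) for the pseudogenes in opposite-strand introns alone (n = 144), opposite an exon (n = 51) and in no other gene (n = 19), with 1 point per pseudogene, filled where the adjusted p by edgeR was under 0.05, and bars at the medians. The medians are 0.28, -0.02 and -0.22.

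In sums over a class, the pseudogenes in introns alone had 6632, 6963 and 7817 CPM in WT and 6599, 7150 and 8458 CPM in flox/flox libraries. Replicate 3 was the highest library of both genotypes. Those opposite an exon, without 1810014B01Rik, had 5474, 5268 and 5316 CPM against 5760, 5574 and 5367, and those in no other gene 2077, 1913 and 1749 against 1984, 2001 and 1809. By matching gene, 9 of the 59 copies of ribosomal protein genes (15.3%) passed the litter test, 8 of them higher, which is near the 14.0% of all 215 and the 11.3% of all genes. With library size only a single ribosomal copy was called, Gm17040, which was lower, and DESeq2 called 0. Without WT replicate 3 there was 1 call, also lower. Of the 10 copies of glycolysis genes 2 passed, Gm12266 and Gm17022, both higher, and 0 did so with library size only, with DESeq2 or without WT replicate 1, 2 or 3. In Cacnb2, the 3 intronic copies Gm13268, Gm13314 and Gm13311 were called higher in litter 2 by edgeR, at 0.58 (adjusted p = 0.0288), 0.81 (0.00855) and 0.62 (0.0352), and Gm10849 opposite the exon was at -0.07 (0.827). None of the 3 was called by DESeq2 (adjusted p of 0.272, 0.161 and 0.295) or with library size only (0.447, 0.198 and 0.408). Without flox/flox replicate 3 none was called either (0.174, 0.0513 and 0.829), and the log2 fold change of Gm13311 was then 0.14. Without flox/flox replicate 1 the log2 fold changes were 0.58, 0.68 and 0.52, with adjusted p of 0.0584, 0.0521 and 0.133. Without WT replicate 3 Gm13268 (adjusted p = 0.216) and Gm13314 (0.176) lost the call, and Gm13311 kept it with a log2 fold change of 1.11. Single calls were also lost without flox/flox replicate 2 (adjusted p = 0.0613 for Gm13268 and 0.0904 for Gm13311), WT replicate 2 (0.0641 for Gm13268) and WT replicate 1 (0.0528 for Gm13311).

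Markers of islet and other cells were set beside these values, with genes chosen for each type. Their counts depend on the same strand setting, which was not tested. They are given as assigned and are not a measure of cell content. All 10 beta cell markers were among the genes analysed and had 355, 469 and 327 summed counts in WT and 357, 293 and 225 in flox/flox libraries, led by Ins2. Of the 6 alpha cell markers 3 were analysed, with sums of 60, 133 and 48 against 52, 69 and 31 and Gcg as the most abundant, and of the 4 delta and PP cell markers 3, with 34, 37 and 21 against 16, 32 and 12 and Ppy as the most abundant. The summed counts of each of these lists were lowest in replicate 3 of both genotypes.

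Markers of other cells were counted in the same way. Of 12 acinar markers 7 were analysed (29, 49 and 29 counts against 18, 12 and 19, led by Pnlip) and of 5 endothelial markers 4 (15, 23 and 15 against 18, 10 and 10, led by Plvap). Of 6 stromal markers 2 were analysed (3, 5 and 1 against 5, 5 and 2, led by Vim) and of 5 immune markers 2 (15, 12 and 11 against 7, 9 and 4, led by Cd68). Of the 9 markers that passed the filter on low counts, 0 were called by genotype with edgeR, as were 0 at an unadjusted p under 0.05 and 0 by DESeq2. By litter, Gcg was lower in litter 2 at -1.13 (SE 0.268, adjusted p = 0.00267) and Krt7, a ductal keratin, higher at 0.84 (SE 0.280, adjusted p = 0.0416). The call of Gcg was lost without WT replicate 2 (-0.74, adjusted p = 0.0865), with DESeq2 (-1.13, 0.299) and with robust estimation (-1.13, 0.164). It was also lost without WT replicate 3, at -1.06, where litter 2 has 1 library. That of Krt7 was lost without flox/flox replicate 2 (0.7, adjusted p = 0.120) or WT replicate 2 (0.72, 0.119), with DESeq2 (0.85, 0.316) and with library size only (0.63, 0.274). Without flox/flox replicate 3 or WT replicate 3 it was lost too, at 0.74 and 0.94. The part of these cell types, and of the larger share of AY036118 in flox/flox replicate 3, in the litter differences of the pseudogenes was not tested.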

How the data were processed

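Strand-specific total RNA libraries were made from the islets of 6 mice. The authors removed rRNA reads, mapped the rest to mm10 with HISAT2 2.1.0, counted reads per Ensembl gene with HTSeq in otherwise default settings, and deposited raw counts per gene and library. The deposited DESeq2 comparison of the authors, which holds the mean normalized count, log2 fold change with its standard error, Wald statistic and p-values, was not used. Of 15286 genes, 15258 were matched to GENCODE M21 on GRCm38 and 28 were not. Totals of 611181 to 800255 counts per library limit the precision of low genes.

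Genes were tested with edgeR 4.0.16 (R 4.3.3), using TMM, its filter on low counts (minimum count 10) and Benjamini-Hochberg adjustment, with a call at an adjusted p under 0.05, and with DESeq2 1.42.0 as an alternative. Genotype was fitted alone and with a litter block. Litters are those of the labels, and deviations from the genotype means correlated at 0.141 to 0.458 within a litter and -0.349 to -0.254 between litters. The paper speaks of 3 pairs of littermates. With the labelled number within litter 1 and the only littermates of litter 2 as pairs, these correlated at 0.273, 0.178 and 0.458, and the pairs were added as a block after seeing the data. No libraries agreed within sampling noise, but chi-square per degree of freedom was 1.80 for the pair of replicate 1 and 1.87 for that of replicate 2, against 4.02 to 4.96 for other libraries of litter 1, and 30.2 for the pair of litter 2. Flox/flox replicate 3 stood apart, at 15.2 to 30.2 from every other library. WT replicate 3 was at 5.61 to 8.79 from the libraries of litter 1. Other alternatives were RLE, library size only, TMM without the 10 most abundant genes, no filter, robust estimation and each library left out. Overlaps were found with bedtools 2.31.1, matches with blastn 2.17.0 and intervals with scipy 1.17.1.

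The named pseudogenes are the 10 with the largest mean, the largest of each gene type, those matching the mitochondrial genome, the 10 with the smallest p among calls, the 3 smallest genotype p in each direction and 2 on each side of the threshold. Other pseudogenes and the genes they overlap were named after their values were seen. The members and lists were chosen with earlier results of these data known. Some items of the lists and of the genes overlapped are not reported here.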

Additional observations from a re-analysis of the deposited data

How the results depend on the processing

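Genotype calls of edgeR over all genes were 0, with 2 under library size only, 3 with litter as a replicate block, 3 with pairs of littermates as a replicate block and 0 to 1 with a library left out and no block, and among the pseudogenes 0, with 1, 1, 1 and 0 to 0 in the same order. With the litter block there were 1 gene and 0 pseudogenes without WT replicate 2, and 8 and 2 without flox/flox replicate 1. Litter calls over all genes were 620, with 265 under library size only, 186 with DESeq2 and 233 to 540 with a library left out. Among the pseudogenes they were 30, with 10, 6 and 10 to 26. The lowest litter counts with a library left out were those without WT replicate 3, which leaves 1 library in litter 2. The other normalizations, no filter and robust estimation gave counts within 1.5 times of the main ones.

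The share of pseudogenes with an opposite-strand exon, 23.7%, was 14.0% where at least 50% of the exonic bases had to meet one, 38.9% at a mean of at least 30 and 15.3% at a mean of at least 5. The share with a protein-coding match, 90.2%, was 39.5% at 90% identity over at least 50% of the exonic bases and 84.2% at a mean of at least 30. Without AY036118 in the total, the mean percent of counts on pseudogenes went from 2.52 to 3.19. The cause of these changes was not tested. A total without mitochondrial genes was not run, since 0 such genes were among those analysed.

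Of the fold changes of the 6 pseudogenes described by genotype, 2 of 60 values gained a call, both of Gm18194 (with the replicate block and library size only), and the block on litter changed no other call among them. The block on pairs, added after seeing the data, called Gm18194 alone as well. For the 9 pseudogenes with the smallest litter p, 7 of 81 values under another scaling or without a library lost the call, and DESeq2, added after seeing the data, lost 4 more. The calls of 1810014B01Rik and of Gm13268, Gm13314 and Gm13311 were lost under 6 of 11, 7 of 12, 5 of 12 and 6 of 12 alternatives. None of these fold changes turned its direction. The median litter difference of the pseudogenes in introns alone, 0.29 above all genes, was 0.26 to 0.40, and that of the pseudogenes in no other gene, -0.21, was -0.23 to 0.02 and turned only without WT replicate 3, at 0.02. These alternatives, those that left out a library with the block and those of 1810014B01Rik and the copies in Cacnb2 were chosen after seeing the data. A mean near 15 counts limits what could be detected.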
